A study of Mus musculus with 3 samples.

Results

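The regions described here are the peaks of the zinc finger transcription factor Sp9 that carry the name of a microRNA gene. They were chosen by name alone: every entry of the authors' table of shared peaks whose gene name begins with Mir and a digit, or with Mirlet7. There were 468 such peaks among 19979 (2.34%), with 303 distinct names. A gene table classed 298 of these names as microRNA genes. The other 5 (Mir22hg, Mir155hg, Mir99ahg, Mir143hg and Mir124a-1hg) belong to long non-coding host transcripts and gave 5 peaks with scores of 292.40, 257.19, 198.59, 100.01 and 94.21. The named gene lay on the chromosome of the peak for 459 of the 468 peaks. The remaining 9 peaks, with 7 names and scores of 84.47 to 107.11, lay on another chromosome than the gene.

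Chromatin came from olfactory bulbs of CD1 mice aged 0 to 2 days after birth, with no genetic change or drug named in the labels. Fixation was with 1% formaldehyde for 10 min. There were 2 libraries precipitated with a homemade antibody against Sp9 and 1 input library without antibody. The table holds 1 score per peak and no value per library, so no peak has a replicate error, and the depth of the libraries is unknown. Whole bulbs hold many cell types, and the table does not say in which of them a region was bound.

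MicroRNAs are short RNAs cut from hairpins in longer transcripts. Their seed, bases 2 to 8 of the mature strand, pairs with messenger RNAs and lowers their translation and stability. Hairpins often sit in clusters that are read as 1 transcript, and many lie inside protein-coding genes. In the olfactory bulb and forebrain, microRNAs such as miR-9 and miR-124 are known for their part in neurogenesis and in the maturation of neurons. Sp9 is a factor of developing forebrain interneurons, among them those of the bulb. In what follows a gene is called linked when it names at least 1 peak. The table gives no distance between a peak and its gene, so a link does not place the peak at the hairpin or its promoter.

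The mature sequences of linked neural, let-7 and proliferation microRNAs show which of them share a seed. They are RefSeq sequences (GRCm38.p6), written 5′ to 3′ with the seed in capitals, and only the arm usually taken as the active one is shown. Of 298 linked microRNA genes, 280 had an entry in that sequence table. Mir124a-3 had none.
miR-9-5p (Mir9-2 and Mir9-3): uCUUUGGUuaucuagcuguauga
miR-212-3p (Mir212): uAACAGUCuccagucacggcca
miR-129-5p (Mir129-1 and Mir129-2): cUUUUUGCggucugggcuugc
miR-34a-5p (Mir34a): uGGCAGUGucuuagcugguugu
miR-34b-5p (Mir34b): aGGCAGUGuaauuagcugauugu
miR-135a-5p (Mir135a-2): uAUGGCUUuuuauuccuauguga
miR-181a-5p (Mir181a-1): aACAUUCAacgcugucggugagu
miR-138-5p (Mir138-1): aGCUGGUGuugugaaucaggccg
miR-137-3p (Mir137): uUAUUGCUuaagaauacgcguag
miR-125b-5p (Mir125b-2): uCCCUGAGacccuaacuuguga
let-7a-5p (Mirlet7a-1): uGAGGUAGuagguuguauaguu
let-7i-5p (Mirlet7i): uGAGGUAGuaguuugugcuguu
miR-17-5p (Mir17): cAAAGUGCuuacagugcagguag

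The 275 linked microRNAs whose seeds were read had 400 distinct seeds over both arms. Of these seeds, 26 were held by 2 or more linked genes, 51 genes in all. The seed held by the most linked genes was that of the miR-15 and miR-16 family, which is known for restraining cyclins and Bcl2. It occurred in 11 genes of the sequence table, and 5 of them named peaks. The sequences are shown because the 5 genes lie on 3 chromosomes and differ outside the seed.
miR-195b (Mir195b): uAGCAGCAcagaaauaguagaa
miR-6419 (Mir6419): cAGCAGCAaucugacacaugga
miR-6342 (Mir6342): cAGCAGCAaucuggucuuugag
miR-15a-5p (Mir15a): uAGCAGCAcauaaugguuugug
miR-6353 (Mir6353): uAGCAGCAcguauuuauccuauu

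Scores in this seed group ran from low to very high. Mir195b had 3 peaks, with scores of 1241.04, 138.19 and 84.47 on chromosome 2, the highest from 56650988 to 56653726 (mm9). Mir6419, whose hairpin lies inside the nebulette gene Nebl, had 1 peak of 616.86. Mir6342 had 5 peaks of 102.25 to 505.11, spread over 700 kb of chromosome 1. Mir15a, the first hairpin of the miR-15a and miR-16-1 cluster, had 1 peak of 226.46, and Mir6353 had 2 peaks of 115.78 and 95.56. A second seed pair joined Mir6350 (top score 1524.79) and Mir6346 (361.46), the only genes of the sequence table with their seed. Their mature sequences diverge after it.
miR-6350 (Mir6350): uAGCAGGUgcauuauaaauau
miR-6346 (Mir6346): uAGCAGGUgucugcaaugccaa

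Scores of microRNA-named peaks were mostly low but included some of the highest of the table. The authors' score of a peak, calculated by a formula the available sources leave out, had a median of 143.85 over the 468 peaks (exact order-statistic 95% interval 137.40 to 159.75), against 210.06 over all peaks. At or above that overall median lay 154 of 468 peaks (32.9%, exact interval 28.7 to 37.4%), against 50% of all peaks. At or below the lower quartile of the table lay 175 of them (37.4%), against 25% of all peaks. At scores of 500 or more the shares lay close together, 51 of 468 (10.9%, exact interval 8.22 to 14.1%) against 12.1% of all peaks. Peaks named for protein-coding genes had a median of 215.23, and the 1223 peaks named for other long non-coding RNA genes had one of 176.43. No replicate value exists with which to test these differences, and peaks are not independent samples.

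**Figure D1:**
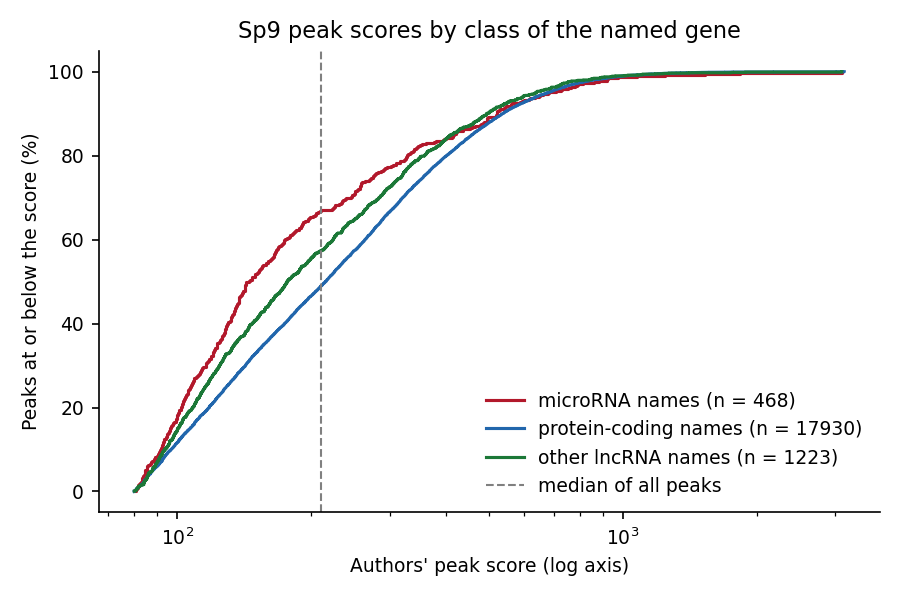
Cumulative share of peaks (%) against the authors' peak score (log axis) for peaks named for microRNA genes, protein-coding genes and other long non-coding RNA genes, with the median of all peaks as a dashed line. The microRNA curve lies above the others at middle scores, with a median of 143.85 against 215.23 for coding names, and the curves come close near 500.

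Width moved with the score. MicroRNA-named peaks were 385 to 3030 bp wide, with a median of 906 bp against 986 bp over all peaks, and the Spearman correlation of score and width across the 468 peaks was 0.684, against 0.745 over all peaks (descriptions across peaks of 1 table). Among peaks of at most 784 bp, the lower quartile of width, 158 microRNA-named peaks had a median score of 111.45 against 115.10 for all peaks there. For widths above 784 bp and up to the median of 986 bp, the medians were 129.42 against 161.81. Above 986 bp and up to the upper quartile of 1259 bp, they were 225.63 against 254.63. Among wider peaks the order turned, with 478.76 for 92 microRNA-named peaks against 442.71.

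The highest microRNA-named peaks belonged to a few names. Mir6546, a hairpin inside the Fc receptor gene Fcgr3, had 5 peaks within 18.0 kb of chromosome 1, with scores of 3100, 1827.22, 1769.24, 526.07 and 135.34. The first of these shares its score of 3100 with 8 other peaks of the table, 9 in all. Mir6350 followed with 1524.79 on chromosome 1 from 47685477 to 47687689, then Mir195b (1241.04) and Mir465 (1075.17), the first gene of a large X-linked cluster known from testis. These 4 names held all 6 microRNA-named peaks over 1000. That was 6 of 468 (1.28%, exact interval 0.472 to 2.77%), against 222 of 19979 over all peaks.

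Among the 20 highest peaks, with 18 names and a lowest score of 730.99, 12 carried a microRNA that lies inside a coding gene. Over all 463 peaks named for genes of the microRNA class, 327 did. Scores between 850 and 1000 belonged to Mir5103 (974.13), Mir7238 (926.17, inside Ankrd10), Mir6991 (922.09) and Mir5131 (921.20, inside the phospholipase gene Ddhd1). In the same range were Mir3960 (883.84), Mir1901 (883.14, inside Cables1) and Mir5130 (860.04, inside Kctd12). Below them came Mir466q (813.41), Mir7654 (792.28), Mir6944 (790.67, inside the drebrin gene Dbn1), Mir1982 (779.03, inside the antizyme gene Oaz1), Mir1906-2 (763.03), Mir1247 (751.50) and Mir124a-3 (730.99). Apart from Mir465, Mir195b and Mir124a-3, these names have little textbook biology to describe. Of the 20 peaks, 5 had a coding-gene peak within 20 kb and 7 had none within 100 kb. Over all 468 microRNA-named peaks, 28.8% had one within 20 kb and 64.7% had one within 100 kb. The 20 peaks were 1157 to 3030 bp wide.

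Neural microRNAs, a list of 35 genes, named peaks for 13 (37.1%, exact interval 21.5 to 55.1%). Over all microRNA genes whose symbol could fit the rule, 298 of 1180 did (25.3%, exact interval 22.8 to 27.8%), against 55.4% of protein-coding genes and 5.77% of long non-coding RNA genes. The interval of the list holds the value over all microRNA genes. Mir124a-3, 1 of the 3 genes of the neuronal microRNA miR-124, had the highest score of the list, 730.99, on chromosome 2 from 180627189 to 180629585. This was above 96.2% of all peaks, and Mir124a-1 and Mir124a-2 named none, although the host transcript Mir124a-1hg named a peak of 94.21. Mir9-3 and Mir9-2 encode the progenitor and neuronal microRNA miR-9. Their scores were 239.31 and 224.80 for Mir9-3 and 234.94 for Mir9-2, all just above the overall median. Mir9-1 named no peak, but Mir3093, in the same group of microRNA genes at most 10 kb apart, named peaks of 353.67 and 250.33.

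Mir212, the first hairpin of the activity-dependent miR-212 and miR-132 cluster, had a peak of 520.79 on chromosome 11 from 74985605 to 74987486. Mir132 itself named none. The rest of the neural list had lower scores: 168.53 for Mir129-1, 137.52 for Mir34b, 128.44 for Mir135a-2, 125.45 for Mir181a-1, 121.72 for Mir138-1, 100.76 for Mir129-2, 85.67 for Mir34a, 81.82 for Mir137 and 80.23 for Mir125b-2. The last 3 lie near the lowest score of the table, 80.01. So 4 of the 13 linked genes had an above-median peak, against 128 of the 298 linked microRNA genes in all. Both genes of miR-129 and both of the linked miR-34 genes were below the median. Mir128-1, Mir128-2, Mir134 and Mir138-2 were among the genes without a peak.

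Let-7 microRNAs promote the exit from the progenitor state. Of 12 genes, 2 named 1 peak each (16.7%, exact interval 2.09 to 48.4%): Mirlet7a-1 with 520.30 on chromosome 13 from 48640917 to 48642440, and Mirlet7i with 495.10 on chromosome 10 from 122421995 to 122423798. Both were above 87% of all peaks. Mirlet7f-1 and Mirlet7d, which follow Mirlet7a-1 in 1 cluster, and Mirlet7b, Mirlet7c-1, Mirlet7c-2, Mirlet7e and Mirlet7f-2 named none. Mirlet7c-1 shares a cluster with Mir99a, and the host transcript Mir99ahg named a peak of 198.59. Of the miR-17 and related clusters of proliferating cells, 2 of 19 genes named peaks (10.5%). Mir17 had peaks of 562.91 and 142.14 on chromosome 14, and Mir15a that of 226.46. The clusters of Mir106a and Mir106b and the pair Mir15b and Mir16-2 named none. With genes at most 10 kb apart counted as 1 locus, 2 of 8 let-7 loci and 2 of 5 loci of these clusters were linked. Over all microRNA genes counted this way, 32.5% were.

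The hairpins of 3 such genes are shown with their mature arms in capitals, to set the short active strands in the precursor whose gene names the peak.
Mir212: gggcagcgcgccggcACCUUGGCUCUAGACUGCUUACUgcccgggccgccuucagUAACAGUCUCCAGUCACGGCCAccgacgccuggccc
Mir17: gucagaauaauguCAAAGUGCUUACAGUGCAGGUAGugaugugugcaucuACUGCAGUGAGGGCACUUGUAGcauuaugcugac
Mirlet7i: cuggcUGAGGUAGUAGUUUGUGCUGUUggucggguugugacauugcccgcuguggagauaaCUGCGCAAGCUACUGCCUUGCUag

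MicroRNAs of other cell types were linked as well. Glial microRNAs had 4 of 14 genes linked (28.6%). Mir23a led with 438.60 and 140.97, followed by Mir219a-2, which drives oligodendrocyte differentiation, with 257.90 and 104.01, then Mir29c (132.68) and Mir338 (83.84), another oligodendrocyte microRNA. Genes of epithelium and sense organs had 2 of 10 linked, Mir203 with 496.04 and Mir200c with 84.57. Mir200a, Mir200b, Mir183 and Mir182 had none.

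Blood and vessel microRNAs had 2 of 13 linked, Mir222 (292.29) and Mir146 (159.75). The defining genes Mir142 and Mir223 of blood cells and microglia and Mir126 of endothelium named no peak. Mir155 and Mir143 of this list named none either, although the host transcripts Mir155hg and Mir143hg named peaks of 257.19 and 100.01. Muscle, liver and pancreas microRNAs had 4 of 14 linked: Mir1a-2 with 708.53, Mir375 with 488.04, Mir499 with 421.61, 322.95 and 286.11, and Mir208a with 113.60. Mir375 and Mir499, best known from islets and heart muscle, thus had higher top scores than every gene of the neural list except Mir124a-3 and Mir212, and Mir1a-2 of muscle than every one except Mir124a-3. With 10 to 35 genes a list, the intervals are wide, and each holds the value of 25.3% over all microRNA genes. They count each gene, although genes of 1 cluster are not independent. By locus, 13 of 31 neural, 4 of 8 glial and 2 of 5 epithelial and sensory loci were linked. For blood and vessel it was 2 of 10, and for muscle, liver and pancreas 4 of 10.

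**Figure D2:**
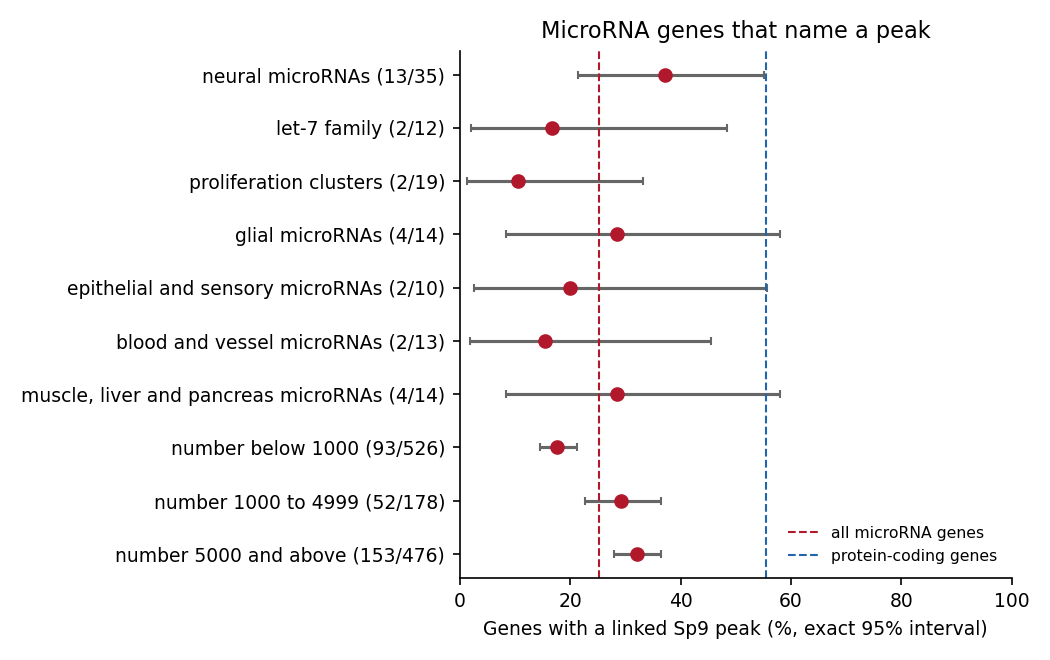
Share of microRNA genes that name at least 1 peak (%, with exact 95% intervals) for 7 lists and for 3 ranges of the microRNA number; the counts stand in the labels. The lists' intervals all cross the dashed line of all microRNA genes at 25.3%, while genes numbered below 1000 lie under it at 17.7%.

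MicroRNA numbers are given in the order of description, so low numbers mark the long-known genes. Of the genes numbered below 1000, the let-7 genes included, 93 of 526 named a peak (17.7%, exact interval 14.5 to 21.2%). For numbers from 1000 to under 5000 it was 52 of 178 (29.2%, interval 22.7 to 36.5%), and from 5000 up 153 of 476 (32.1%, interval 28.0 to 36.5%). Score went the other way, with peak medians of 156.64, 144.74 and 137.85 and above-median shares of 38.1, 33.3 and 29.9%. In the same order, 53.6, 73.0 and 80.3% of the genes lay inside a coding gene, and 14.3, 24.7 and 38.1% of the peaks had a coding-gene peak within 20 kb. The 2 largest microRNA clusters carry mainly numbers below 1000, the 72 genes inside Sfmbt2 (1 linked) and the 39 genes of the Mir379 cluster (0 linked). Over all numbers, 10.9% of clustered genes were linked, against 31.9% of those outside clusters. The parts of the host genes and of the clusters in the linked share were not tested.

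Base composition of the hairpins was set beside these groups. The median GC content of the hairpin was 54.6% for 258 linked genes and 50.7% for 705 genes without a peak. Below number 1000 the medians were 49.2 and 47.1%, from 1000 to under 5000 they were 52.9 and 52.2%, and from 5000 up 57.1 and 53.3%. The hairpin need not lie under the peak, so these are properties of the named genes, not of the bound DNA.

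In linked clusters read from 1 strand, the peak usually carried the name of the first hairpin. Neighbouring microRNA genes at most 10 kb apart formed 100 clusters, of which 37 were linked, 33 of them through 1 gene only. Clusters with genes on both strands or without a strand entry were left out of the order below. Some of these are linked and hold 3 or more genes, such as the 72 genes inside Sfmbt2. By position on the chromosome, which need not be the direction of transcription, the only linked gene there, Mir669h, comes last. In the left-out cluster of Mir133a-1 the linked gene, Mir1a-2, is also last. In that of Mir3093 it is the first, and in that of Mir23a the first and the last are linked. Of 22 linked clusters read from 1 strand, the first gene in the direction of transcription named a peak in 17 and the last in 7; most of these clusters are pairs. In the 5 of these 22 clusters with 3 or more genes it was the first gene in 5 and neither the last nor an inner gene in any. These were the clusters of Mir465 (19 genes), Mir17 (6 genes), Mir302b (5 genes, a pluripotency cluster inside Larp7, score 545), Mirlet7a-1 and Mir99b (118.93), the latter followed by Mirlet7e and the neural Mir125a. How the authors assigned names to peaks was not stated in the labels, and the part of that rule in this order was not tested.

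**Figure D3:**
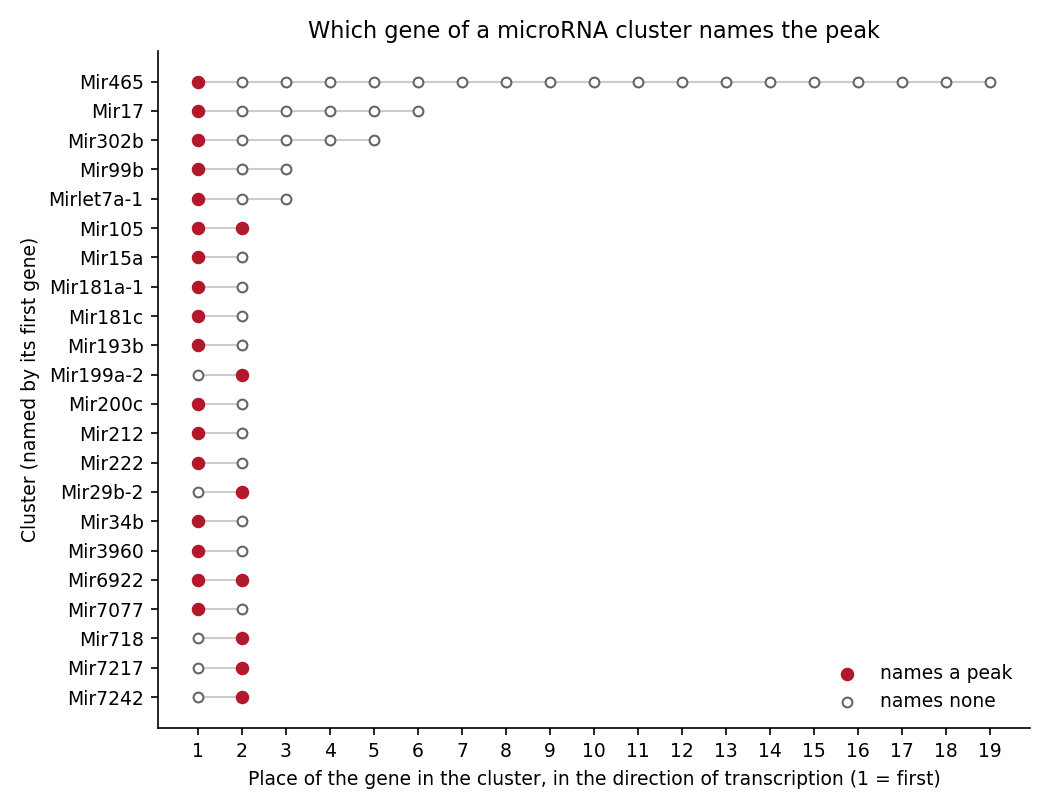
Each line is 1 linked microRNA cluster read from 1 strand, with its genes in the direction of transcription (x axis: place in the cluster, 1 = first). Filled points name a peak and open points name none. The first gene is filled in 17 of these 22 clusters and in each of the 5 of them with 3 or more genes.

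Clustered genes were linked less often one by one, 41 of 375 (10.9%) against 257 of 805 genes outside clusters (31.9%), while 37 of the 100 clusters had a linked gene. In the largest cluster, the 72 genes inside Sfmbt2 on chromosome 2, 1 gene named a peak, Mir669h with 269.94. None of the 39 genes of the next largest, that of Mir379 on chromosome 12, named one. That cluster lies in the imprinted domain between Dlk1 and Dio3, where 1 of 61 microRNA genes named a peak, Mir1247 with 751.50, which belongs to none of these clusters. A cluster had more than 1 linked gene in 4 cases. They were Mir6922 and Mir6921 in the lipid regulator gene Srebf1 (6 peaks, up to 677.50), Mir3065 and Mir338 in Aatk (5 peaks, up to 246.64), Mir23a and Mir3074-2 (3 peaks, up to 438.60), and Mir105 and Mir767 in the GABA receptor gene Gabra3 (3 peaks, up to 458.20). A run of peaks with 3 different microRNA names occurred once, on chromosome 8, where Mir181c (479.22 and 127.79), Mir23a and Mir3074-2 (162.47) gave 5 peaks within 29.9 kb.

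Most names had 1 peak, namely 209 of 303, and 44 names had 3 or more, 159 peaks in all. These names were split by span into compact (at most 50 kb), intermediate and spread (over 100 kb) ones. For 26 names the peaks spanned at most 50 kb, and in 25 of these the microRNA lies inside a coding gene. Of all 298 linked microRNA genes, 208 lie inside one. Mir6941, inside the Notch ligand gene Jag2, had 5 peaks of 95.44 to 182.63 within 8.89 kb. Mir1900, inside the neuronal adhesion gene Icam5, had 4 of 104.81 to 259.23 within 6.12 kb, and Mir499, inside the myosin gene Myh7b, 3 within 4.83 kb. Mir7032 in Hip1r had 5 peaks, none above 120.52.

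For 14 names the peaks spanned over 100 kb, and 6 of these lie inside a coding gene. None of their 53 peaks had a coding-gene peak within 20 kb, against 40 of the 90 peaks of the compact names. Over all 468 microRNA-named peaks, 135 had one (28.8%). The 5 peaks of Mir6336, inside the large lipoprotein receptor gene Lrp1b, covered 1002 kb of chromosome 2 with scores of 90.77 to 438.19. Mir6350 covered 919 kb, with 1524.79 at one end, 649.55 at the other and 100.40 to 166.03 between them. Mir1187 covered 728 kb, Mir6370 544 kb, Mir3106 576 kb and Mir691, inside the guidance receptor gene Robo2, 342 kb. Among the 4 names of intermediate span were Mir3089 (68.4 kb, 5 peaks, up to 478.21) and Mir3108 (60.7 kb, 5 peaks, up to 237.79), the latter inside the homeobox gene Zfhx3. In all, 50 microRNA-named peaks with 31 names lay over 500 kb from the nearest coding-gene peak. The remaining names with 4 peaks were Mir6921, Mir6977 (inside the phosphatase gene Ptprs, 92.98 to 518.98), Mir3065, Mir7037 and Mir3080, and each spanned at most 35.9 kb.

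**Figure D4:**
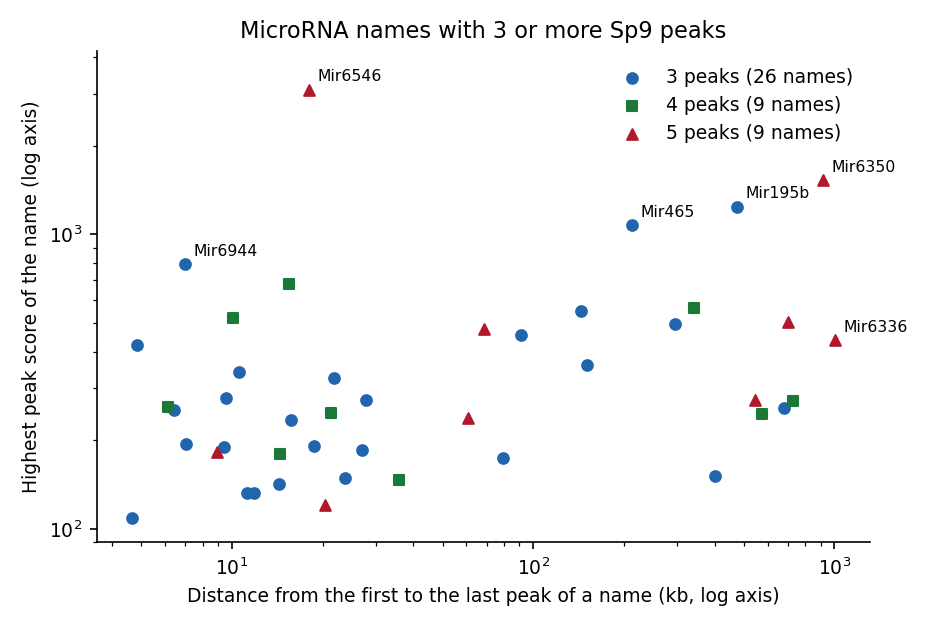
Each point is 1 of 44 microRNA names with 3 or more peaks, by the distance from its first to its last peak (kb, log axis) and its highest score (log axis); the marker gives the number of peaks. By span, 26 names lie within 50 kb, 14 over 100 kb and 4 between.

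The share of microRNA-named peaks with a neighbour named for a coding gene lay between those of the coding and the other non-coding names. Within 20 kb, edge to edge, 135 of 468 microRNA-named peaks had one (28.8%, exact interval 24.8 to 33.2%), against 38.5% of the peaks with other names. Among the latter it was 40.5% for coding names and 15.0% for other long non-coding RNA names. With only above-median coding-gene peaks counted as neighbours, the shares were 22.9 and 23.3%. The median distance to the nearest coding-gene peak was 46.3 kb against 32.7 kb for all other names and 150 kb for other long non-coding RNA names. Neighbours of any name were closer, at a median of 16.1 kb against 29.8 kb, and 106 microRNA-named peaks (22.6%) lay in runs of 5 or more peaks, against 11.8% of all peaks. Another microRNA-named peak lay within 20 kb for 175 peaks, in 64 runs, of which 3 held more than 1 microRNA name. At the edge of the 20 kb limit, Hoxd3 lay 19.93 kb from a Mir10b peak and Icam1 19.89 kb from a Mir1900 peak, whereas Mapk11 lay 20.08 kb from a Mir7118 peak and Gins2 20.30 kb from a Mir7687 peak.

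Location of the microRNA went with this. Peaks of microRNAs inside a coding gene had a coding-gene peak within 20 kb in 121 of 327 cases (37.0%), and those of microRNAs outside coding genes in 13 of 136 (9.56%). Linked shares of the genes were close, 26.2% inside and 23.3% outside, and the median scores were 137.88 and 164.72. Of the 208 linked microRNAs inside a coding gene, 151 had a host gene that also named a peak (72.6%, exact interval 66.0 to 78.5%). Of the 586 such microRNAs that named none, 375 did (64.0%, exact interval 60.0 to 67.9%).

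Of the 135 peaks with a coding neighbour, the nearest coding-gene peak carried the name of the host gene for 74, of the next coding gene on either side for 56 and of another gene for 5. The coding-gene peak had the higher score in 91 of the 135 pairs (67.4%, exact interval 58.8 to 75.2%), with medians of 225.90 and 134.89. Some pairs share a coding-gene peak, so they are not independent. Above-median peaks made up 26.7% of the 135 and 35.4% of the 333 microRNA-named peaks without such a neighbour. The same direction held for all other peaks, with medians of 187.11 beside and 227.34 away from another coding-gene peak.

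**Figure D5:**
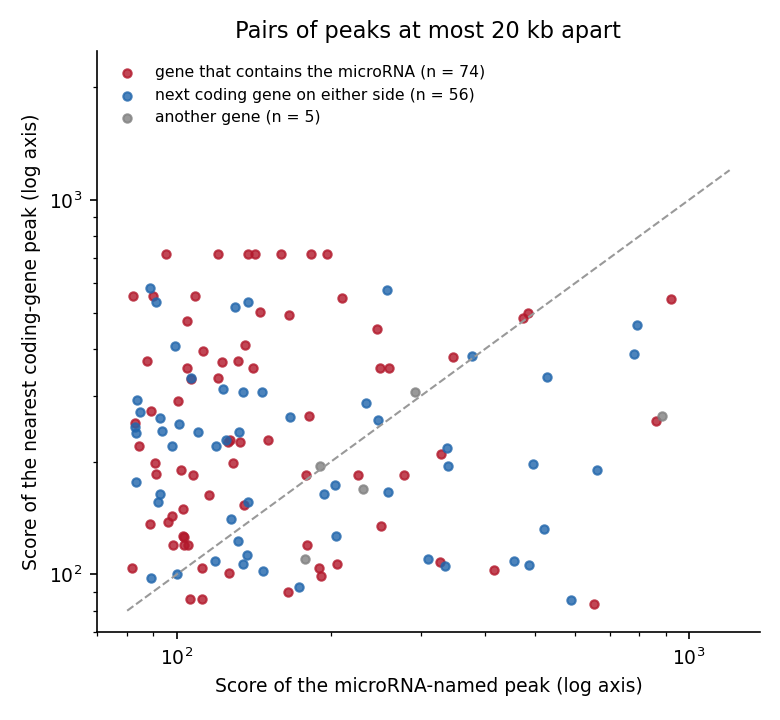
Score of the nearest coding-gene peak against the score of the microRNA-named peak (both log axes) for the 135 pairs at most 20 kb apart, coloured by whether the coding gene contains the microRNA, is the next on either side, or is another gene. Points above the dashed line of equal scores number 91.

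High peaks of both kinds stood together at Mir212. Its peak of 520.79 had 3 peaks of Hic1, a tumour suppressor and transcriptional repressor, at 1.31, 2.56 and 4.29 kb with scores of 131.91, 663.64 and 959.67. A peak of the Nogo receptor-like gene Rtn4rl1 (889.54) lay 19.35 kb away. The peak of Mir5620 (651.60) lay 0.15 kb from a Clcn4 peak of 83.24 and 19.52 kb from the highest peak of the table, that of Vmn2r29 (3139.09). At Mir203 (496.04), Kif26a peaks of 196.97 and 636.45 lay 12.17 and 13.75 kb away.

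In other pairs the coding-gene peak had the higher score. The peak of Mir1897 (99.91) lay 5.26 and 6.25 kb from peaks of 99.97 and 583.79 of Sox2, the progenitor factor. All 5 peaks of Mir6941 lay 10.72 to 18.67 kb from a Jag2 peak of 716.82. Mir7687 peaks of 196.85, 120.09 and 233.61 lay 0.07, 9.80 and 15.01 kb from a peak of 715.28 of Gse1, a coiled-coil protein of corepressor complexes. A Zbtb42 peak of 720.58 lay 12.16 kb from Mir6939 (102.80), a Tsr3 peak of 580.84 lay 2.83 kb from Mir3547 (88.59), and a Mafk peak of 579.37 lay 19.33 kb from Mir7037 (105.12).

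The reverse also occurred. The Mir6991 peak of 922.09 lay 2.41 kb from a peak of 542.27 of its host 2700081O15Rik, and the Mir5130 peak of 860.04 lay 12.60 kb from a Kctd12 peak of 256.83. The peak of Mir6944 (790.67), whose host Dbn1 encodes an actin-binding protein of dendritic spines, lay 5.78 kb from a Prr7 peak of 463.28. At the islet microRNA Mir375 (488.04), a Cryba2 peak of 105.90 lay 7.05 kb away. The order was mixed at Mir10b, whose host Hoxd3 named a peak of 184.71. That peak lay 14.50 and 19.93 kb from the Mir10b peaks of 277.38 and 179.02, and the third Mir10b peak (122.77) lay 23.20 kb from it.

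Several high microRNA-named peaks stood far from coding-gene peaks. The top peak of Mir195b lay 300.97 kb from one named Nr4a2, the nuclear receptor gene of dopamine neurons, which scored 92.27. Mir30a (728.12) lay 125.33 kb from an Ogfrl1 peak, and Mirlet7a-1 and Mirlet7i lay 78.09 and 89.11 kb from peaks of Ptpdc1 and Mon2. Mir124a-3 lay 25.24 kb from a Ythdf1 peak of 406.60, just beyond the limit.

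By chromosome, the linked share of microRNA genes ran from 12.8% on chromosome 12 (12 of 94) to 47.3% on chromosome 8 (26 of 55). Chromosome 12 holds the Dlk1 to Dio3 domain and chromosome 2, at 20%, the Sfmbt2 group. On chromosome X, 16 of 90 genes were linked. On 4 of 20 chromosomes the median score of the microRNA-named peaks was above that of all peaks there: 210.91 against 175.48 on X (20 peaks), 250.33 against 207.19 on 3 (17 peaks), 281.40 against 224.50 on 14 (15 peaks) and 338.48 against 213.16 on 18 (8 peaks).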

How the data were processed

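Sp9-bound DNA from neonatal mouse olfactory bulb was sequenced as paired ends of 150 bases in 2 immunoprecipitation libraries and 1 input library, per the labels' protocols. Per the submitters' processing notes, Bowtie2 2.2.4, MACS 1.4.2 and mm9 were used, with no roles or settings stated. The authors deposited 1 peak score per shared peak, with its position and 1 gene name; the score's formula, the sharing rule, the naming rule and the depth were not stated there. Positions are printed as deposited.

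Names were matched by symbol, then by unique synonym (1 name), to a RefSeq gene table (GRCm38.p6), used only for class, host gene, gene order and clusters; sequences are RefSeq's of that build. Of 1228 microRNA genes, 1180 have symbols that fit the name rule; 2 of the others named a peak each. Distances between peaks use the deposited positions and were checked on simulated neighbours. Values are counts, shares with exact Clopper-Pearson 95% intervals and medians, beside the same over all peaks or genes; intervals cover counting only, and with no value per library no test was made (Python 3.11.15, scipy 1.17.1). Host means a coding gene whose span holds the hairpin.

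The region set, the 7 microRNA lists (117 genes) and the alternatives were chosen with earlier results of these data known. Named are the 20 highest peaks, the names with most peaks, up to 8 linked and 8 unlinked genes a list, clusters with 2 or more linked genes, and the 10 highest coding neighbours; others were chosen after their values were seen.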

Additional observations from a re-analysis of the deposited data

How the results depend on the processing

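Across 22 alternative settings of 4 results, the microRNA value lay below the background in each, 14 stayed within the interval of the reported value and 8 moved outside it. With each gene name counted once by its highest peak, 42.9% of microRNA names were at or above the overall median, against 62.8% of all names, and the median score was 180.79 against 268.56. With above-median peaks only, 10.8% of microRNA genes were linked, against 35.4% of coding genes; with each cluster counted once, 32.5% were. A coding-gene peak lay within 5 kb of 7.91% of microRNA-named peaks (17.7% of others), within 10 kb of 16.2% (26.3%) and within 50 kb of 52.1% (60.5%). With above-median coding-gene peaks only, the shares were 22.9 and 23.3%, so that difference almost vanished. The cause of these moves was not tested. Leaving out host transcripts or the 9 peaks on another chromosome was added after seeing the data. Leaving out a library could not be run, since the table holds no value per library. No paired analysis was possible because no value belongs to a single library. Since depth is not known, a gene that named no peak may still lie near a bound region.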
